A study of Mus musculus with 203 samples.

Results

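The nucleus ambiguus (Amb) of the brainstem holds the preganglionic parasympathetic neurons that slow the heart. AmbCardiac neurons were sorted by the deposited annotation into ACP (ambiguus cardiopulmonary) and ACV (ambiguus cardiovascular) neurons, and those types are compared here gene class by gene class. All neurons with these assignments were taken, 53 ACP and 98 ACV neurons beside 52 neurons of the larynx that make up the rest of the series, and for each gene it was asked whether it was missing from nearly all neurons of a type or was expressed in both types at different levels. Preganglionic neurons release acetylcholine onto ganglion neurons in the wall of the heart. What sets such neurons apart is usually found among the transcription factors that fix position and identity, the surface proteins that guide axons and match synaptic partners, the receptors through which inputs act, and the channels and peptides that shape firing and release.

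Wild-type C57BL/6 mice (C57BL/6NCrl in the study's methods) received the retrograde tracer cholera toxin B as pups, in the space around the heart for AmbCardiac neurons or in the cricothyroid muscle of the larynx for AmbLaryngeal neurons. Single labeled cell bodies were drawn into a pipette from brainstem slices at postnatal days 2 to 4, and their RNA was sequenced by Smart-seq2, in which the full-length cDNA of a single cell is amplified by PCR. The 52 AmbLaryngeal neurons serve below only as an outgroup from the same nucleus. The labels tie no neuron to a mouse or a plate, so each type counts as 1 sample of neurons and no p-value is given. The types were also defined by clustering these same counts, so every difference between them is a description, and the intervals given are exact 95% binomial intervals that cover counting error only.

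Depth was alike in both types. Counts outside *Rn45s*, the ribosomal RNA precursor, ran from 330407 to 2396541 per ACP neuron (median 1115380) and from 313668 to 2226230 per ACV neuron (median 1120510). The median number of genes detected was 7902 in ACP and 7626 in ACV neurons. *Rn45s* took a median of 34.3% of the counts in ACP and 35.8% in ACV neurons and was removed before each neuron was scaled to 10000 counts, the unit of every level below. *Apoe*, a glial gene, was read in all 53 ACP and in 95 of 98 ACV neurons at medians of 8.92 and 8.55 per 10000, and 11 ACP and 28 ACV neurons had more than the 1800 counts of *Apoe* given in the methods as the maximum. Summed astrocyte markers had medians of 11.6 and 12.4, oligodendrocyte lineage markers 3.902 and 3.192, and microglial markers 0.957 and 1.05, though the mean for microglia was 1.60 in ACP and 5.34 in ACV neurons. Among the 47 marker genes of glia, vessels and other neurons, 42 were measured and 0 of the 42 passed the limits defined below. Over all measured genes 1.61% passed toward ACP and 0.839% toward ACV, so 0 of 42 is near that share. The limits ask for a difference across many neurons and cannot register glial reads confined to a few, as in the microglial means.

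The label of cholinergic visceral motor neurons was checked against its markers. *Slc18a3*, the vesicular acetylcholine transporter, and *Chat*, which makes acetylcholine, were read in every ACP and every ACV neuron. *Isl1*, a motor neuron homeobox factor, was read in 49 of 53 ACP and 94 of 98 ACV neurons at medians of 2.23 and 1.90 per 10000. *Calb1* (calbindin), the marker used for ACP neurons, was read in 41 of 53 ACP neurons (77.4%, interval 63.8 to 87.7%) and in 44 of 98 ACV neurons (44.9%, interval 34.8 to 55.3%). *Bche* (butyrylcholinesterase), the marker used for ACV neurons, was read in 88 of 98 ACV neurons and in 23 of 53 ACP neurons. Both marker transcripts were read in neurons of either type, with a mean *Calb1* of 1.76 in ACP and 0.388 in ACV neurons and a mean *Bche* of 0.146 and 0.994.

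A gene was measured if at least 10% of either type had a read of it, which 13356 genes did. It was counted as differing when the ratio of the mean levels, with 0.05 added to each, was at least 2, and when the neuron of the higher type held the higher value in at least 65% of all pairs of an ACP and an ACV neuron, ties counted as 0.5. This pair share is 0.5 where the types are alike and 1 where they do not overlap. By both limits 215 genes, or 1.61% of those measured, were higher in ACP neurons, and 0.839% were higher in ACV neurons, 327 genes in all. These are the background shares against which the classes are read. The limits fell in a dense range: *Jag1* lay just inside the pair share limit at 0.6504 and *Glra2* just outside at 0.6494, *Pdp1* lay just inside the ratio limit at a log2 ratio of 1.0002 and *Plxna2* just outside at 0.9988, and 247 more genes passed only the pair share and 473 only the ratio. Over the 26 ACP and 44 ACV neurons with at most 900 counts of *Apoe*, 2.46% and 1.47% of the genes passed both limits, and the part of glial RNA in this was not tested.

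Absence was the rarest pattern, and most of the genes past both limits were read in more than 10% of the neurons of either type. Of the 215 genes higher in ACP neurons, 13 (0.0973% of those measured) were near-absent in ACV neurons, with a read in at most 10% of them, 0.786% had a read in more than 10% but under 50% of ACV neurons, here called partial, and 97 (0.726%) had a read in at least 50% of them, here called a shift in level. Of the genes higher in ACV neurons, 12 (0.0898%) were near-absent in ACP neurons, 54 (0.404%) were partial and 46 (0.344%) were shifts in level. Partial was thus the most common pattern in both directions. A gene read in few neurons of the higher type cannot reach the pair share limit, so the number near-absent depends on that limit. At a pair share of 0.60 it was 31 in ACV and 18 in ACP neurons. Only 4 genes, *Ghsr*, *Htr3b*, *Arg1* and *Il17f*, had no read in a whole type, which was ACP for each of the 4.

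**Figure D1:**
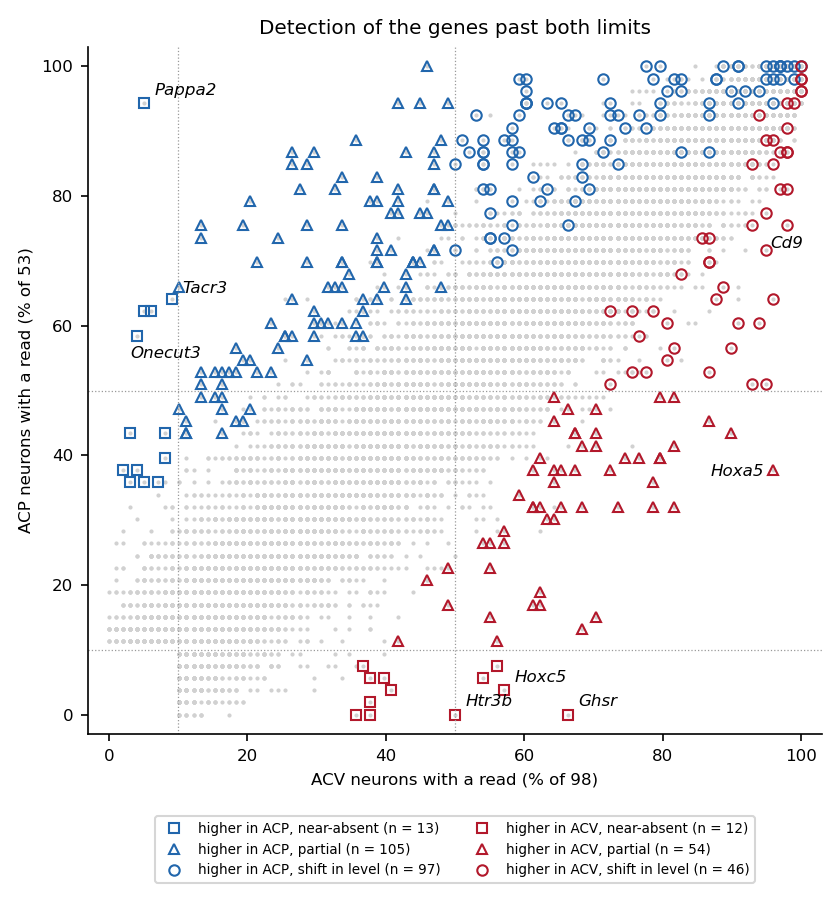
Detection in both types. Each point is a gene, with the share of the 98 ACV neurons with a read of it on the x axis and of the 53 ACP neurons on the y axis, both in percent, gray for the other measured genes and colored by direction and pattern for the 327 past both limits. Dotted lines mark 10% and 50%. The near-absent genes lie along the left edge (13, higher in ACP) and the lower edge (12, higher in ACV), and *Pappa2* at the upper left and *Ghsr* at the lower right lie farthest from the diagonal among them.

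*Pappa2*, which encodes a secreted protease that cuts insulin-like growth factor binding proteins, came closest to separating the types. It was read in 50 of 53 ACP neurons (94.3%, interval 84.3 to 98.8%) and in 5 of 98 ACV neurons (5.10%, interval 1.68 to 11.51%). Levels ran from 0 to 12.6 with a median of 1.34 in ACP neurons and from 0 to 0.703 with a median of 0 in ACV neurons, so the groups overlapped only through the few ACP neurons without a read and the few ACV neurons with one. The ratio of means was 40.9 and the pair share 0.966. The gene lies on the minus strand of chromosome 1 from 158711727 to 158980490 (GENCODE vM21, GRCm38).

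The other genes near-absent in ACV neurons were spread over regulators, receptors and surface proteins. *Tacr3*, the neurokinin B receptor, was read in 34 of 53 ACP neurons (64.2%, interval 49.8 to 76.9%) at up to 8.53 and in 9 of 98 ACV neurons at up to 0.235. *Cldn1*, a tight junction protein, was read in 33 ACP neurons (62.3%) and 6 ACV neurons (6.12%). The homeobox factors *Onecut1* and *Onecut3* were read in 33 and 31 ACP neurons and in 5 and 4 ACV neurons, while their relative *Onecut2* was read in 22 ACP and 30 ACV neurons and passed neither limit. For both *Onecut1* and *Onecut3* the few ACV neurons with a read held more of it (mean 0.582 and 0.284) than the ACP neurons with a read did (mean 0.226 and 0.175), so these genes differed by how many neurons had a read and not by the level in those neurons. *Onecut1* shares 52.8% of its exon length with the noncoding gene *Gm20649* on the same strand, and its reads could in part be those of that gene.

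The 8 genes not yet given in this group were read in 35.8 to 43.4% of ACP neurons, and so were missing from most neurons of the higher type as well. They were *Avil* (advillin, an actin-binding protein of sensory and cholinergic neurons), *Eya4* (a transcriptional coactivator), *Agtr1b* (an angiotensin II receptor), *Ppp1r1c* (a phosphatase inhibitor), *Ism1* and *Tll1* (a secreted factor and a secreted protease), *Jag1* (a Notch ligand) and the noncoding *Gm16551*. *Eya4* was read in 20 of 53 ACP neurons and 2 of 98 ACV neurons, and *Agtr1b* in 21 and 8. *Jag1* no longer passed both limits when neurons were thinned to 400000 counts.

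On the ACV side the leading near-absent gene was *Ghsr*, the receptor for ghrelin. It was read in 65 of 98 ACV neurons (66.3%, interval 56.1 to 75.6%) at a median of 0.118 and up to 2.21 per 10000. It had no read in any of the 53 ACP neurons, which allows a share of up to 5.66% when 3 neurons are taken as the limit of a count of 0, and up to 6.72% by the exact interval. Its mean in ACV neurons was 497-fold a floor of 3 counts summed over all ACP neurons. The floor counts reads and not neurons, so this ratio is no lower bound if some unsampled ACP neurons have reads. The gene lies on the plus strand of chromosome 3 from 27371351 to 27378010.

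*Htr3b*, a subunit of the serotonin-gated ion channel, was read in 49 of 98 ACV neurons (50%, interval 39.7 to 60.3%) at up to 3.03. It had no read in 53 ACP neurons, with the same limits of 5.66 and 6.72%, and its mean was 1134-fold the same floor. *Arg1* (arginase 1) was read in 37 ACV neurons at up to 7.97 and *Il17f* (a cytokine) in 35 at up to 1.72. Both were without a read in ACP neurons, and their means were 1786-fold and 484-fold the floor, with the same reserve as for *Ghsr*. *Il17f* had no read in the 52 AmbLaryngeal neurons either, where a count of 0 allows a share of up to 5.77% by the limit of 3 neurons and up to 6.85% by the exact interval. *Hoxc5*, a homeobox factor of the caudal hindbrain and neck, was read in 56 ACV neurons (57.1%) and in 2 ACP neurons (3.77%, interval 0.460 to 12.98%).

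Receptors for peptide hormones made up 3 of these 12 genes. *Rxfp2*, a relaxin family receptor, was read in 53 of 98 ACV neurons and 3 of 53 ACP neurons, and *Sstr5*, a somatostatin receptor, in 55 and 4. The related *Sstr2* fell just outside the pattern, with a read in 60 ACV neurons (61.2%) and 9 ACP neurons (16.98%). The remaining near-absent genes were *Myocd* (a coactivator of serum response factor), *Runx2* and *Yap1* (regulators of transcription), *Fzd5* (a Wnt receptor) and *Hpgd* (which breaks down prostaglandins), read in 36.7 to 40.8% of ACV neurons and in 1 to 4 ACP neurons. *Runx2* and *Yap1* no longer passed both limits when neurons were thinned to 400000 counts or when *Rn45s* was kept in the library size.

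RefSeq promoters (GRCm38.p6) were at hand for 11 of the 13 genes near-absent in ACV and 8 of the 12 near-absent in ACP neurons. Because *Onecut1* and *Onecut3* were among the former and *Hoxc5* among the latter, the 250 bases before each start were searched on both strands for ATTGAT, the core of Onecut binding sites, and for TGATNNAT, the site of Hox and Pbx pairs, which can overlap it. The first was found in 2 of the 11 and in 0 of the 8, against 7.72% of the 27025 genes with a promoter, and the second in 0 of the 11 and 1 of the 8, against 8.81%. Among all genes past both limits with a promoter, each of these sequences was found in 7.93% of those higher in ACP neurons. Each was found in 3.49% of those higher in ACV neurons. The larger sets thus showed no clear excess over all promoters. The 3 promoters with a match are shown 5′ to 3′ in the direction of the gene, with the matched letters in capitals, and a match is a description of letters and not a site. *Avil* (chr10:127000459-127000708, plus strand) held 2 matches to ATTGAT, *Ppp1r1c* (chr2:79707530-79707779, plus strand) held 1, and *Rxfp2* (chr5:150018425-150018674, plus strand) held 1 match to TGATNNAT.
Avil promoter: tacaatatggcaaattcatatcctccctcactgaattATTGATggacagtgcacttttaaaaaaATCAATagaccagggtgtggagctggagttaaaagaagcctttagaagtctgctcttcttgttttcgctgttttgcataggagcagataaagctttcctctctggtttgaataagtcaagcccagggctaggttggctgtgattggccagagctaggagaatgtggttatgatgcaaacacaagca
Ppp1r1c promoter: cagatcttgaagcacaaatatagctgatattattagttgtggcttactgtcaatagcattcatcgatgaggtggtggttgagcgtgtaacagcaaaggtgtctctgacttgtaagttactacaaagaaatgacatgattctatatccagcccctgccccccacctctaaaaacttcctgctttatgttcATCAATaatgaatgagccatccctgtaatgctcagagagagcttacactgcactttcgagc
Rxfp2 promoter: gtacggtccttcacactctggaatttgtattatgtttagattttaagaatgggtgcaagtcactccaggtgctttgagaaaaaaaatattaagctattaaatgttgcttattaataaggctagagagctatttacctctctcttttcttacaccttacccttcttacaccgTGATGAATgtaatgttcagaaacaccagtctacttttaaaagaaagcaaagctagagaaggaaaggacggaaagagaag

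How much of a ratio came from the share of neurons with a read, and how much from the level in those neurons, was computed for each gene from the means without an added constant. For the 97 shifts in level higher in ACP neurons, the median log2 ratio of 1.63 was made of 0.35 from detection and 1.25 from level, and the level part was the larger in 96 of the 97. For the 46 shifts higher in ACV neurons the level part was the larger in 45. In the partial genes the parts were about even, the level part being the larger in 52.4% of those higher in ACP and in 59.3% of those higher in ACV neurons. In the near-absent genes the order was turned, with the level part the larger in 2 of 13 (*Tacr3* and *Agtr1b*) and in 1 of 8 (*Fzd5*), the 4 genes with no read in ACP neurons having no level there. *Onecut1* and *Onecut3* had a level part of opposite sign, at -1.36 and -0.69. The patterns were defined by detection, so this division is in part built in.

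**Figure D2:**
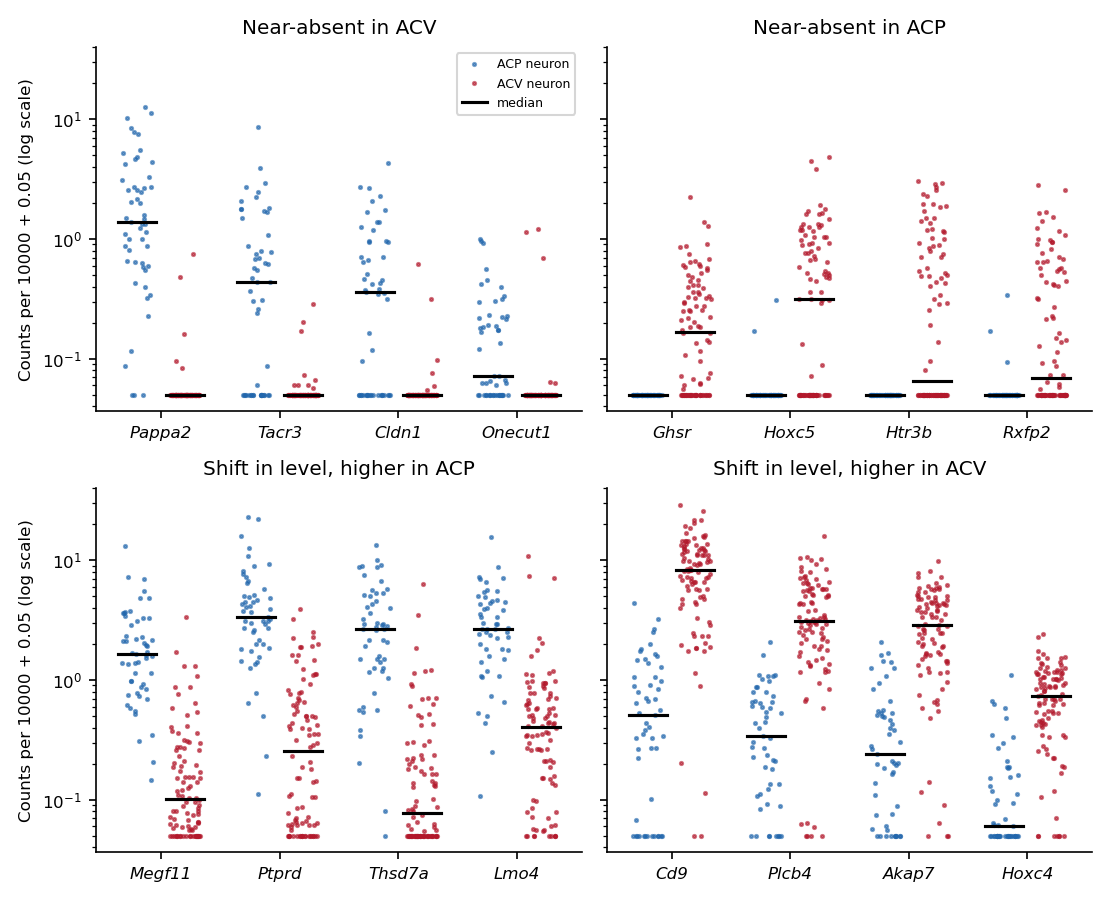
Levels in single neurons. Each point is a neuron, with counts per 10000 plus 0.05 on a log y axis, ACP in blue and ACV in red, and black bars mark medians. In the upper panels (near-absent genes) most neurons of the lower type sit at the bottom of the axis, where no read was found, while in the lower panels (shifts in level) both types spread over the axis, as for *Cd9* with medians of 0.461 and 8.21.

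The clearest shifts in level had pair shares close to that of *Pappa2*. *Megf11*, a cell-surface protein of the Megf family, was read in every ACP neuron at 0.0975 to 13.1 (median 1.60), and in 76 of 98 ACV neurons at up to 3.32 (median 0.0509), with a ratio of 9.06 and a pair share of 0.954. *Ptprd*, a receptor phosphatase that organizes synapses, was read in all ACP neurons (median 3.30) and in 78 ACV neurons (median 0.205), with a ratio of 8.78. In the other direction *Cd9*, a tetraspanin of the cell membrane, was read in 96 ACV neurons at up to 29.1 (median 8.21) and in 40 ACP neurons at up to 4.36 (median 0.461), with a ratio of 11.1 and a pair share of 0.950. *Cd9* is also abundant in glia. Its log2 ratio was -3.48 over all neurons and -3.49 over the 26 ACP and 44 ACV neurons with at most 900 counts of *Apoe*.

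Single neurons held a mix of the near-absent genes of their own type. ACP neurons had a read of 1 to 12 of the 13 genes near-absent in ACV neurons (median 6), and 0 to 3 of the 12 genes near-absent in ACP neurons (median 0). ACV neurons had a read of 0 to 12 of the latter 12 (median 6) and of 0 to 5 of the former 13 (median 0). More genes of the own type than of the other were read in 53 of 53 ACP and in 88 of 98 ACV neurons, which the choice of these genes largely fixes. Of the other ACV neurons, 5 had equal numbers and 5 had more of the ACP genes, and the 5 with equal numbers had a median of 5582 genes detected against 7626 over all ACV neurons. Reads from both sets together were found in 18 ACP and 45 ACV neurons.

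**Figure D3:**
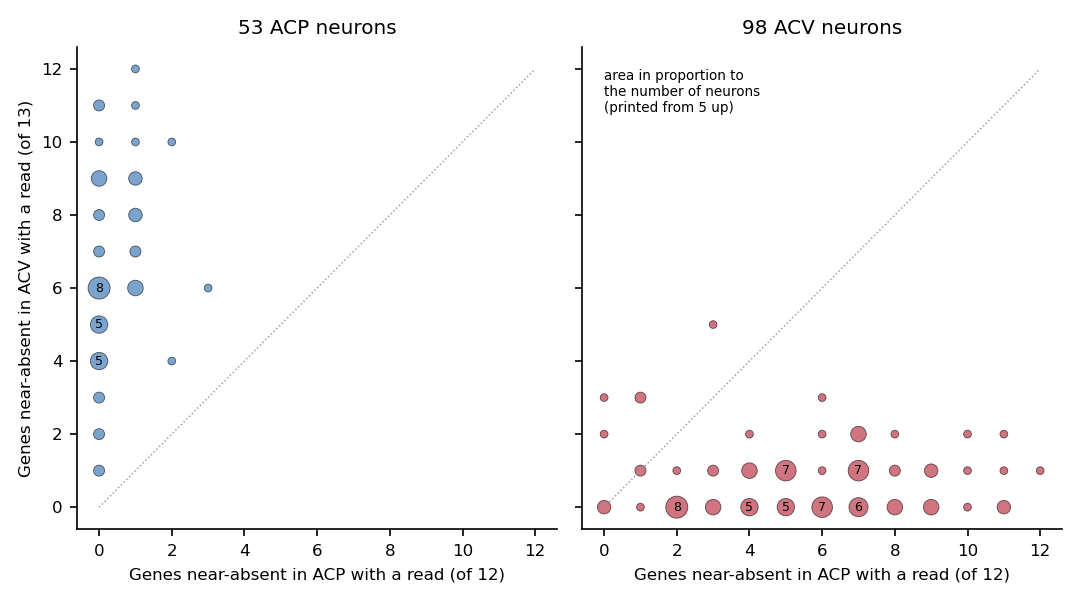
Near-absent genes in each neuron. The x axis gives how many of the 12 genes near-absent in ACP had a read in a neuron and the y axis how many of the 13 near-absent in ACV, with the area of a circle in proportion to the number of neurons there and the dotted line at equal counts. ACP neurons lie along the y axis at 1 to 12 genes and ACV neurons along the x axis at 0 to 12 genes, with 5 ACV neurons above the line.

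The 327 genes were read by function in 15 classes holding 1453 measured genes. Of these, 8.60% were higher in ACP and 3.51% in ACV neurons, against 0.763% and 0.517% of the 11794 measured genes outside the classes. The classes were drawn up with earlier results of these counts known. Neither their shares above the background nor their direction or pattern is therefore a finding in itself, and both only describe the lists. More of all measured genes were higher in ACP than in ACV neurons (1.61% and 0.839%). A lean to ACP is thus in part general, and equal numbers are not neutral. Surface and extracellular classes leaned to ACP neurons. Transcription factors (10 and 10) and intracellular signaling (6 and 7) were about even in number, and cholinergic genes held only ACV-directed genes (0 and 2).

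**Figure D4:**
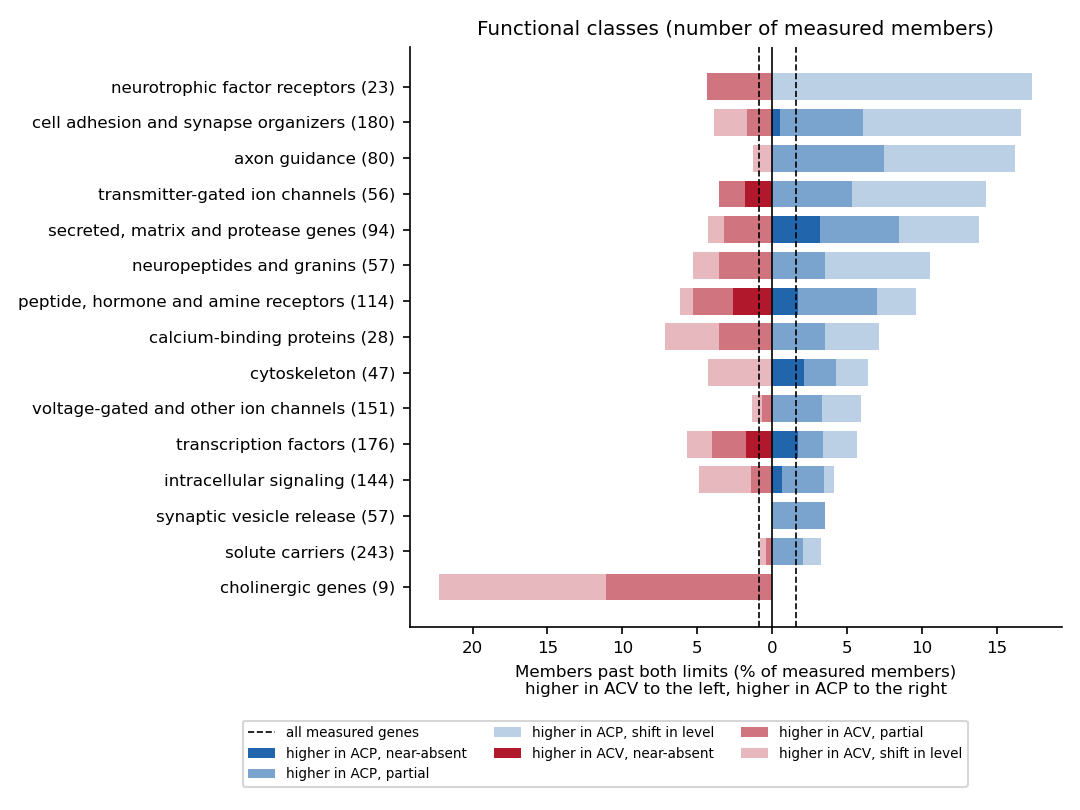
Functional classes. Bars give the percent of measured members past both limits, higher in ACP to the right (blue) and in ACV to the left (red), divided by pattern from near-absent (dark) to shift in level (light), with the number of measured members in parentheses and the share over all measured genes dashed (1.61% and 0.839%). Cell adhesion (16.7%) and axon guidance (16.2%) reach far to the right, and transcription factors extend equally to both sides (5.68% each).

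Among the measured transcription factors the Hox genes stood out by position in their clusters. Hox genes are arrayed along the chromosome in the order of their expression along the body axis, with higher paralog numbers expressed farther caudal. None of the 16 measured Hox genes was past the limits toward ACP, and 5 were past them toward ACV neurons, all in paralog groups 4 and 5. *Hoxa5* was read in 94 of 98 ACV neurons at up to 18.2 (median 3.56) and in 20 of 53 ACP neurons at up to 2.104 (median 0), a ratio of 28.6 and a pair share of 0.941. *Hoxb5* was read in 85 ACV neurons (median 1.34) and 24 ACP neurons (median 0), a ratio of 10.2. *Hoxc4*, *Hoxc5* and *Hoxa4* had ratios of 4.997, 10.8 and 3.13. All 7 measured genes of groups 4 and 5 had the higher mean in ACV neurons, against 3 of the 6 in groups 1 to 3, where *Hoxb2* was read in 81.1% of ACP and 54.1% of ACV neurons (log2 ratio 0.82, pair share 0.676, under the ratio limit). *Hoxb6*, *Hoxb7* and *Hoxb8* were read in at most 13.3% of either type. The Hox partner *Pbx3* had a ratio of 2.84 toward ACV neurons.

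Factors higher in ACP neurons came from other families. *Lmo4*, a LIM-only cofactor, was read in all 53 ACP neurons (median 2.64) and in 89 ACV neurons (median 0.354), a ratio of 4.62 and a pair share of 0.905. *Mab21l2*, a Mab21-like protein, was read in 51 ACP neurons (median 1.24) and 59 ACV neurons (median 0.0531), a ratio of 4.72, though 35.98% of its exon length lies opposite exons of *Lrba*. *Tbx2*, a T-box repressor, was read in 42 ACP and 20 ACV neurons. *Pou4f1*, a POU factor of sensory and cholinergic neurons, was read in 29 ACP and 20 ACV neurons at means of 0.692 and 0.0340. *Dach1*, *Foxp1* and *Zfhx4* completed the list of 10 with *Eya4*, *Onecut1* and *Onecut3*. The motor neuron homeobox genes, with *Isl1* among the 14 measured, had no member past the limits in either direction. That is near the shares over all measured genes (1.61% and 0.839%).

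Axon guidance genes leaned to ACP neurons, with 13 of 80 measured members higher there and 1 higher in ACV neurons, and a median log2 ratio of 0.42 against 0.00 over all genes. None of the 14 was near-absent in a type. Over all measured genes 0.0973% were near-absent in ACV and 0.0898% in ACP neurons, so none of 80 is near those shares. The secreted semaphorins *Sema3c* and *Sema3d*, which steer axons, were read in 50 and 39 of 53 ACP neurons and in 41 and 13 of 98 ACV neurons, with ratios of 8.33 and 12.9. *Rgmb*, a repulsive guidance molecule, had medians of 1.57 and 0.198 and a ratio of 5.41. *Dcc* and *Unc5c*, receptors for netrin, *Robo1*, the receptor for Slit, and *Ntng2*, a netrin-like membrane protein, were among the others higher in ACP neurons. The exception was the Eph receptor *Epha7*, at medians of 0.0605 in ACP and 0.891 in ACV neurons and a ratio of 2.52 toward ACV. *Nrp2*, a semaphorin receptor, had medians of 2.18 and 1.67 and did not pass the limits.

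Cell adhesion and synapse organizers held the largest number of genes of the classes, 30 of 180 measured higher in ACP and 7 in ACV neurons, with a median log2 ratio of 0.35. Most were shifts in level, 19 of the 30 and 4 of the 7. Of the 11 measured nonclustered protocadherins, adhesion proteins that bind their own kind, 6 were higher in ACP neurons. *Pcdh18* was read in 45 ACP and 26 ACV neurons at a ratio of 11.97, and *Pcdh10* in 52 and 86, with a ratio of 3.80. *Pcdh11x*, *Pcdh17*, *Pcdh19* and *Pcdh20* had ratios of 2.19 to 2.48. Their relative *Pcdh9* went the other way, at a mean of 2.59 in ACP and 5.44 in ACV neurons. *Cntn4*, a contactin of axon surfaces, was read in 47 ACP neurons (88.7%) and 35 ACV neurons (35.7%), a ratio of 12.9.

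Members of several organizer families lay on the ACP side. Of the 7 measured teneurins and latrophilins, which bind each other across the synapse, *Tenm1*, *Adgrl2* and *Adgrl3* were higher in ACP neurons, at ratios of 5.44, 2.58 and 2.76. Leucine-rich repeat organizers gave 4 of 21, led by *Slitrk5* with a ratio of 4.85, and receptor phosphatases 4 of 17, led by *Ptprd*. None of the 18 measured integrins passed the limits, which is near the shares over all measured genes (1.61% and 0.839%). On the ACV side lay *Cd24a*, a small glycosylated membrane protein (medians 0.343 in ACP and 3.73 in ACV neurons, ratio 3.66), *Cd44*, the receptor for hyaluronan (8 of 53 ACP and 69 of 98 ACV neurons, ratio 4.29), and *Ctnna2*, an alpha-catenin of neurons (medians 1.14 and 4.46, ratio 2.76). *Cd81*, another tetraspanin, had medians of 10.04 and 11.4 and a log2 ratio of -0.09, in contrast with *Cd9*.

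The peptide, hormone and amine receptors held 5 near-absent genes, 2 toward ACP (*Tacr3*, *Agtr1b*) and 3 toward ACV (*Ghsr*, *Rxfp2*, *Sstr5*), among 11 (9.65%) and 7 (6.14%) past the limits. *Trhr*, the thyrotropin-releasing hormone receptor, was read in 40 of 53 ACP neurons (75.5%, interval 61.7 to 86.2%) at up to 8.26 (median 1.11) and in 13 of 98 ACV neurons (13.3%, interval 7.26 to 21.6%) at up to 1.94 (median 0), a ratio of 16.6. *Adra2a*, an adrenergic receptor that inhibits firing, was read in 45 ACP and 28 ACV neurons. *Mc4r*, the melanocortin receptor of appetite circuits, was read in 39 and 24 and *Cckbr*, a cholecystokinin receptor, in 25 and 10. *Lifr*, the receptor for leukemia inhibitory factor, was a shift in level at medians of 1.25 and 0.0561.

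Metabotropic glutamate receptors were on the ACP side in 3 of the 9 measured metabotropic amino acid receptors. *Grm5* was read in nearly all neurons of both types at medians of 2.53 and 0.824, while *Grm7* and *Grm8* had ratios of 4.23 and 3.11. Higher in ACV neurons, besides the near-absent 3, were *Sstr2*, *Lepr* (the leptin receptor, 61 of 98 ACV and 9 of 53 ACP neurons), *P2ry1* (a receptor for ADP, 61 and 10) and *Chrm2* (the inhibitory muscarinic receptor, a shift in level at medians of 0.494 in ACV and 0.0125 in ACP neurons). Exons of *P2ry1* share 23.1% of their length with an antisense gene. *Gabbr1*, a subunit of the GABA-B receptor, passed neither limit, with medians of 2.24 in ACP and 1.77 in ACV neurons.

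Transmitter-gated channels leaned to ACP neurons in 8 of 56 members and to ACV neurons in 2, and their median log2 ratio was 0.42. Of the 14 measured GABA-A receptor subunits 4 were higher in ACP neurons. *Gabre* and *Gabrq*, the epsilon and theta subunits, were read in 40 and 46 of 53 ACP neurons and in 19 and 26 of 98 ACV neurons, at ratios of 5.25 and 3.31. *Gabra3* had a ratio of 2.89, and *Gabra4* was higher in ACV neurons at a ratio of 3.03. *Glrb* (a glycine receptor subunit), *Chrna4* (a nicotinic subunit), *Grik3* (a kainate receptor subunit) and *Neto1* (an auxiliary subunit of kainate receptors) were on the ACP side. *Gria2*, an AMPA receptor subunit, had medians of 4.69 and 3.09 and a pair share of 0.648, just under that limit.

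Ion channels of the voltage-gated and other kinds gave 9 genes (5.96%) toward ACP and 2 (1.32%) toward ACV neurons. None was near-absent, which is near the shares of near-absent genes over all measured genes (0.0973% in ACV and 0.0898% in ACP neurons). Of the 9 toward ACP, 6 were among the 67 measured potassium channel genes. *Kcnn2*, a calcium-activated potassium channel, was read in 50 of 53 ACP neurons (median 0.556) and 59 of 98 ACV neurons (median 0.0253), a ratio of 4.20. *Kcnj12*, an inward rectifier, had a ratio of 4.74, and *Kcnd2* and *Kcnd3*, which carry A-type current, were read in 49 and 34 ACP neurons and in 65 and 42 ACV neurons. *Cacna2d3*, an auxiliary calcium channel subunit, had a ratio of 2.75. *Ano2*, a calcium-activated chloride channel, was read in 67 ACV neurons (68.4%) and 7 ACP neurons (13.2%), a ratio of 6.68 toward ACV. *Cacna1g* (a T-type calcium channel) was higher in ACP and *Cacna1e* (an R-type channel) in ACV neurons, at ratios of 3.65 and 2.61. None of the 10 measured sodium channel genes passed the limits, which is near the shares over all measured genes (1.61% and 0.839%).

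Neurotrophic factors and receptors had 4 of 23 members higher in ACP neurons, all shifts in level, and 1 higher in ACV neurons. *Gfra2*, the receptor for neurturin, was read in 47 of 53 ACP neurons (median 1.06) and 56 of 98 ACV neurons (median 0.0495). *Gfra1*, the receptor for GDNF, was read in 78 ACV neurons (median 0.535) and 26 ACP neurons (median 0). *Fgfr1*, a fibroblast growth factor receptor, and *Ngfr*, the p75 neurotrophin receptor, had ratios of 3.05 and 3.44. *Bdnf*, a neurotrophin, had a ratio of 2.65 and a pair share of 0.673, which lay under 0.65 when neurons above 1800 counts of *Apoe* were left out.

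Peptide precursors and their processing proteins were mostly shared. *Adcyap1*, the precursor of PACAP, was read in 51 of 53 ACP and 92 of 98 ACV neurons at medians of 2.95 and 1.01. *Uts2b*, the precursor of a urotensin II related peptide, was read in 44 ACP neurons (83.02%) and 38 ACV neurons (38.8%), a ratio of 4.92. *Vgf*, a granin, was read in 50 and 64 with a ratio of 4.44, and *Chgb*, chromogranin B, in 53 and 96 with a ratio of 2.21. On the ACV side *Nts*, the neurotensin precursor, was read in 61 ACV and 21 ACP neurons at means of 0.499 and 0.0384. *Igf1*, a growth factor, was read in 80 and 22 (ratio 5.18), and *Ecel1*, a membrane metalloprotease of motor neurons, had means of 13.9 and 6.81. *Scg2*, another granin, did not pass the limits (medians 7.39 in ACP and 12.1 in ACV neurons). In all 6 of 57 members were higher in ACP and 3 in ACV neurons.

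Intracellular signaling was balanced in number but not in pattern. The 6 members (4.17%) higher in ACP neurons were mostly partial (4), and the 7 (4.86%) higher in ACV neurons mostly shifts in level (5). *Plcb4*, a phospholipase C that acts below Gq-coupled receptors, was read in 94 of 98 ACV neurons (median 3.09) and 45 of 53 ACP neurons (median 0.292), a ratio of 8.14 and a pair share of 0.918. *Akap7*, an anchor for protein kinase A, had medians of 2.81 in ACV and 0.192 in ACP neurons and a ratio of 7.05. *Adcy8*, an adenylyl cyclase activated by calcium, was read in 80 ACV neurons and 17 ACP neurons. *Socs1* and *Socs2*, which damp cytokine signaling, were higher in ACV neurons at ratios of 3.07 and 3.62. *Rasgrf1* and *Rasgrf2*, exchange factors for Ras, were higher in ACP neurons, read in 50 and 47 of 53 ACP and in 44 and 47 of 98 ACV neurons. *Gnas*, the stimulatory G protein subunit, had medians of 12.97 in ACP and 26.5 in ACV neurons, a log2 ratio of -0.77 under the ratio limit at a pair share of 0.806 toward ACV.

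Secreted, matrix and protease genes had 13 of 94 members higher in ACP and 4 higher in ACV neurons, with a median log2 ratio of 0.39. Besides *Pappa2*, the largest ratio was that of *Thsd7a*, a thrombospondin-domain membrane protein, at medians of 2.63 in ACP and 0.0279 in ACV neurons and a ratio of 10.9. *Brinp3*, of a family induced by retinoic acid in neurons, was read in all 53 ACP neurons and in 45 of 98 ACV neurons, a ratio of 7.41. Of the 28 measured heparan sulfate and related sulfotransferase genes 5 (17.9%) were higher in ACP and 0 in ACV neurons. Over all measured genes the shares were 1.61% and 0.839%, so 0 of 28 toward ACV is near that share. The 5 were *Hs6st1*, *Hs3st2*, *Hs3st4*, *Hs3st5* and *Chst8*, at ratios of 2.54 to 4.92. Those higher in ACV neurons were *Nell1* (ratio 3.20), *Thsd7b* (4.72), *Susd5* (5.31) and the protease *Adamts18* (4.96).

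Of 9 measured cholinergic genes *Bche* and *Slc10a4*, a transporter of synaptic vesicles, passed the limits, both toward ACV neurons (22.2% of the 9, against 0.839% of all measured genes), and *Slc10a4* was a shift in level at medians of 0.127 in ACP and 6.196 in ACV neurons. *Ache*, acetylcholinesterase, had medians of 10.6 and 10.5 and *Slc5a7*, the choline transporter, 2.69 and 3.06. *Colq*, which anchors acetylcholinesterase, was read in 7 of 53 ACP and 37 of 98 ACV neurons, a ratio of 2.07 toward ACV with a pair share of 0.631, under that limit. *Slc18a3* had medians of 9.17 and 6.73 and a pair share of 0.674, past that limit, but a log2 ratio of 0.58. Of 57 measured synaptic vesicle genes, *Tmem163* and *Sv2b* (3.51%) were higher in ACP neurons and none in ACV neurons. Over all measured genes the shares were 1.61% and 0.839%, so none of 57 toward ACV is near that share. The neuronal genes *Tubb3*, *Snap25*, *Nefl* and *Prph* were read in every neuron. *Snap25*, *Nefl* and *Prph* had lower medians in ACP (10.7, 45.6 and 12.97) than in ACV neurons (16.98, 84.5 and 21.4), all under the ratio limit. Exons of *Nefl* share 32.8% of their length with exons of *Nefm* on the other strand.

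Calcium-binding proteins, cytoskeletal genes and solute carriers added few genes. *Vsnl1*, a calcium sensor, was read in all ACP neurons and 89 ACV neurons at medians of 0.729 and 0.141, and *S100a11* and *Necab1* were higher in ACV neurons at ratios of 2.02 and 2.18, close to the limit. Of 47 cytoskeletal genes *Avil*, *Lcp1* and *Tes* were higher in ACP neurons, and *Rdx* (radixin) and *Sptb* (a spectrin) in ACV neurons. Of 243 solute carriers 8 (3.29%) were higher in ACP and 2 (0.823%) in ACV neurons, the latter near the 0.839% over all measured genes. *Slc5a5*, the iodide transporter, was read in 9 ACP and 48 ACV neurons. Cytosolic ribosomal protein genes, a reference, had a median log2 ratio of -0.32 with 0 of 78 past the limits, and -0.05 in neurons with at most 900 counts of *Apoe*. Over all measured genes 1.61% and 0.839% passed, so 0 of 78 is near that share.

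Within several gene families a member was past both limits toward ACP neurons and a close relative toward ACV neurons. These pairs were picked out after their values were seen. To compare the level of different genes, counts were divided by the exon length of the gene in GENCODE vM21. By counts per kilobase, *Thsd7a* exceeded *Thsd7b* in 51 of 53 ACP neurons and the reverse held in 67 of 98 ACV neurons. *Zfhx4* exceeded *Zfhx3* in 48 ACP neurons and *Zfhx3* exceeded *Zfhx4* in 70 ACV neurons. *Dgkb* exceeded *Dgkg*, another diacylglycerol kinase, in 39 ACP neurons and *Dgkg* exceeded *Dgkb* in 89 ACV neurons, and *Gfra2* exceeded *Gfra1* in 44 ACP neurons while *Gfra1* was the higher in 55 ACV neurons.

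Some of these exchanges were of degree, with both genes read in most neurons of each type. Reads of both *Zfhx4* and *Zfhx3* were found in 45 of 53 ACP and 93 of 98 ACV neurons, and of both *Dgkb* and *Dgkg* in 38 and 81. *Gfra2* and *Gfra1* were read together in fewer, 22 ACP and 48 ACV neurons, and *Thsd7a* and *Thsd7b* in 19 and 44. Of 23 pairs of relatives past the limits in opposite directions, the lead changed from the first gene in most ACP neurons to the second in most ACV neurons in 10 and did not in 13. The pairs were not separate cases, because *Pcdh9*, *Gabra4*, *Epha7*, *Cdh22* and *Rgs10* each recurred as the second gene of several pairs. *Lmo4* exceeded *Lmo3* in 52 ACP and 57 ACV neurons, and *Pcdh9* exceeded each of *Pcdh10*, *Pcdh17* and *Pcdh18* per kilobase in most neurons of both types, by 43 against 9 ACP neurons and 96 against 2 ACV neurons for *Pcdh10*.

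**Figure D5:**
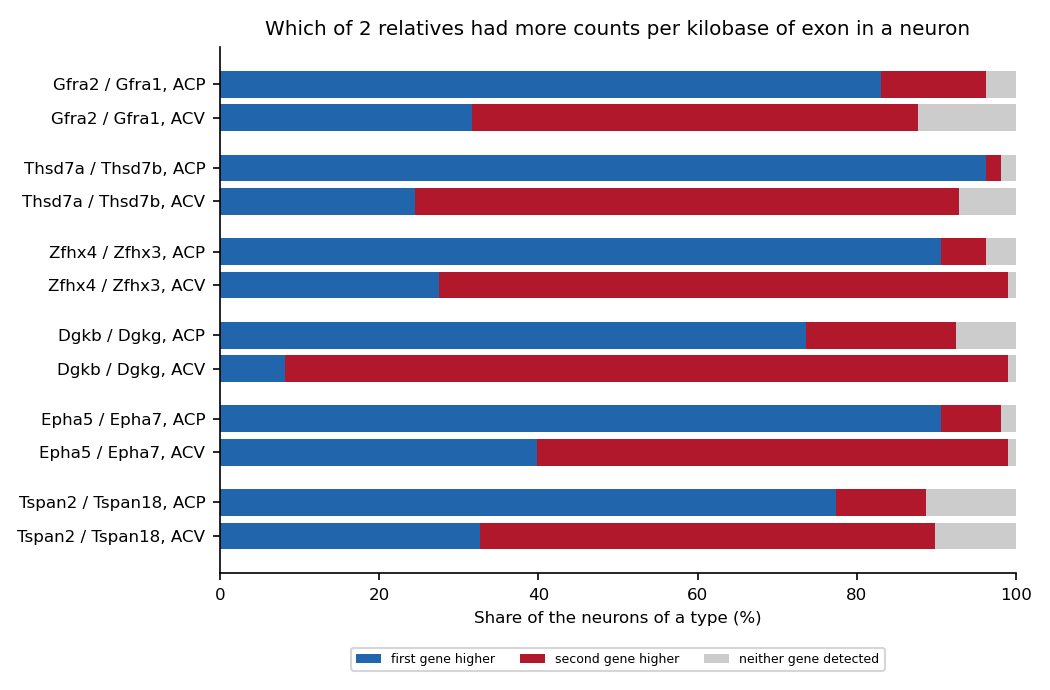
Relatives that differ in opposite directions. For each pair of genes and each type, the bar gives the percent of neurons in which the first gene (blue) or the second gene (red) had more counts per kilobase of exon, with neurons lacking a read of both in gray. In all 6 pairs shown, chosen from the 10 of 23 in which the lead changes, the first gene leads in most ACP neurons (73.6 to 96.2%) and the second in most ACV neurons (56.1 to 90.8%).

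AmbLaryngeal neurons were divided about evenly between the types over the genes higher in ACP neurons. For the genes higher in ACV neurons they lay more often nearer to ACP neurons, most of all among the shifts in level. They had fewer counts outside *Rn45s* (median 560892), and shares of neurons with a read are lower at lower depth. By mean level they lay nearer to the higher type for 6 of the 13 genes near-absent in ACV and 5 of the 12 near-absent in ACP neurons, for 53 of 97 and 15 of 46 shifts in level, and for 53.3% and 42.6% of the partial genes. *Cldn1*, *Onecut1* and *Onecut3* were read in 3.85, 5.77 and 5.77% of AmbLaryngeal neurons, as in ACV neurons, and *Tacr3* in 51.9%, closer to ACP neurons. *Ghsr* was read in 21.2%, *Htr3b* and *Hoxc5* in 9.62% and *Rxfp2* in 3.85%. *Gfra1* had its highest median in AmbLaryngeal neurons, 6.80, against 0 in ACP and 0.535 in ACV neurons.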

How the data were processed

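Single neurons were sequenced by Smart-seq2 with paired-end reads and no molecular identifiers. Reads were pruned with Skewer and mapped to mm10 with STAR 2.6.1d, per the labels and methods, and the authors deposited raw read counts per gene and neuron for 203 neurons, 151 of them ACP or ACV. The counting program, annotation and use of strand are not given in the sources used here. The authors also assigned the types by clustering, and that deposited annotation was used as given. A deposited table named CPM was not used because its columns sum to between 242376.55 and 3031764.5.

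*Rn45s* was removed and each neuron scaled to 10000 counts. Of 24029 genes, 13356 had a read in at least 10% of either type, and 215 of them were past both limits toward ACP and 112 toward ACV. Ratios of means used 0.05 added per 10000, and shares have exact (Clopper-Pearson) 95% intervals, which like the limits of 3 counts cover counting error only. No neuron is tied to a mouse, so no test was run, and no doublet caller was run. Python 3.11.15, numpy 2.4.6, scipy 1.17.1, pandas 2.3.3 and matplotlib 3.10.9 were used, with R 4.3.3 and edgeR 4.0.16 only for TMM (trimmed mean of M-values) library sizes as an alternative. The scripts were tested on simulated data.

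The comparison, gene classes and limits were chosen with earlier results of these data known. The rule named up to 4 genes past both limits per class and direction by pair share, genes without a read in a type, the member of each class with the highest mean count, 10 genes per direction outside the classes, and set markers. Other genes named, the remaining near-absent genes and the pairs of relatives were chosen after their values were seen. Alternatives changed library size, depth, neurons kept, detection, limits and the added constant. Some genes that the rule names are not reported here.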

Additional observations from a re-analysis of the deposited data

How the results depend on the processing

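None of the 327 genes past both limits changed the sign of its log2 ratio under the 9 alternatives of library size, depth, neurons kept, added constant and summed counts. This was largely fixed beforehand. The added constant cannot change a sign, and the other alternatives reuse all or part of the neurons by which these genes were picked. Counts are given as percent of the 13356 measured genes. Genes higher in ACP neurons (1.61%) came to 2.46% with at most 900 counts of *Apoe*, 2.65 and 0.801% at a ratio limit of 1.5 and 3, 2.49 and 0.996% at a pair share limit of 0.60 and 0.70, and 0.943% with 0.2 added. Genes higher in ACV neurons (0.839%) came to 1.47% with at most 900 counts of *Apoe*, 0.472% at a ratio limit of 3, and 1.32 and 0.502% at a pair share limit of 0.60 and 0.70. Of the genes past both limits in all neurons, 86.05 and 87.5% were also past them with at most 900 counts of *Apoe*. Genes near-absent in ACV neurons (0.0973%) came to 0.157% when thinned to 400000 counts, 0.210% with at most 900 counts of *Apoe*, 0.157% at 3 reads, 0.0599% at a ratio of 3, 0.232 and 0.0449% at a pair share of 0.60 and 0.70, 0.0299% with 0.2 added, and 0.0374 and 0.277% at a limit of 5% and 20% detection. Genes near-absent in ACP neurons (0.0898%) came to 0.150% with at most 900 counts of *Apoe*, 0.0374% at a pair share of 0.70, 0.0524% with 0.2 added, and 0.0524 and 0.157% at 5% and 20% detection. Shifts in level higher in ACP neurons (0.726%) came to 1.15% with at most 900 counts of *Apoe*, 1.62 and 0.292% at a ratio of 1.5 and 3, and 0.479% with 0.2 added, and those higher in ACV neurons (0.344%) to 0.659, 0.659 and 0.127% under the first 3 of these. The stricter and looser limits set these counts by construction, and for the *Apoe* limit the cause was not tested. With at most 1800 counts of *Apoe*, chosen after seeing the data, 2.11 and 1.01% passed. The genes named here whose calls were lost were *Runx2*, *Yap1*, *Jag1*, *Glrb*, *Unc5c*, *Pdp1*, *S100a11* and *Necab1* when thinned, *Runx2*, *Yap1*, *Unc5c*, *S100a11* and *Necab1* with *Rn45s* kept, and *Unc5c* over neurons with *Rn45s* under 50% of their counts. With at most 900 counts of *Apoe* they were *Agtr1b*, *Bdnf*, *Ism1*, *Necab1*, *Ngfr*, *Pdp1*, *Ppp1r1c*, *Runx2*, *Tll1*, *Unc5c* and *Yap1*, and with at most 1800 *Bdnf*, *Grm8*, *Jag1*, *Pdp1*, *Tll1* and *Yap1*. Adding 0.2 lowers the ratios of low genes and ended 38.5% of the calls, among them *Agtr1b*, *Dach1*, *Eya4*, *Foxp1*, *Fzd5*, *Gabra4*, *Glrb*, *Gm16551*, *Grik3*, *Grm8*, *Hoxa4*, *Hpgd*, *Hs3st4*, *Ism1*, *Jag1*, *Kcnd3*, *Lepr*, *Myocd*, *Necab1*, *Onecut1*, *Onecut3*, *Pcdh11x*, *Pcdh20*, *Pdp1*, *Ppp1r1c*, *Robo1*, *Runx2*, *S100a11*, *Socs1*, *Sptb*, *Tll1*, *Unc5c* and *Yap1*. No paired analysis was possible because the labels name no mouse per neuron and the values come from no test.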

Other observations

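Outside the functional classes, 90 genes were higher in ACP and 61 in ACV neurons, and the 10 with the highest pair share in each direction were mostly shifts in level (7 of 10 and 7 of 10). *Dner*, a Notch-related neuronal membrane protein, was read in all 53 ACP neurons (median 4.13 per 10000) and 94 of 98 ACV neurons (median 1.19), a ratio of 3.35. *Dpy19l1*, a mannosyltransferase, was read in 50 ACP neurons (median 1.20) and 59 ACV neurons (median 0.0269), a ratio of 7.51. *Sez6*, a membrane protein of dendrites, had medians of 1.14 and 0.209, and *Ptchd1*, a patched-domain protein, 2.12 and 0.764. *D930028M14Rik* and *Gulp1*, an engulfment adaptor, were partial, read in 43 and 35 ACP neurons and in 32 and 10 ACV neurons. *Sgcz*, *Klhl13*, *Tmem47* and *Mgat4c* completed the list with ratios of 2.92 to 4.34.

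Toward ACV neurons, *Vat1l* was read in 98 of 98 ACV neurons (median 18.3) and 51 of 53 ACP neurons (median 4.28), a ratio of 3.24. *Prune2* had medians of 9.29 in ACV and 2.17 in ACP neurons. *Parm1*, a mucin-like membrane protein, was read in 92 ACV neurons (median 1.44) and 32 ACP neurons (median 0.139), with the highest pair share of the 10 at 0.845. *Lxn* (latexin, a carboxypeptidase inhibitor) was read in 89 and 32 neurons, yet its highest value was in an ACP neuron, 9.59 against 7.60. *Cpne8* (a copine), *Dlc1* (a GTPase-activating protein) and *Etl4* were partial, read in 77, 78 and 80 ACV neurons and in 17, 21 and 26 ACP neurons. *B3glct* and *Tmem178* had ratios of 3.45 and 3.66.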
